A study of Canis lupus familiaris with 29 samples.

Results

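Chemokines are small secreted proteins that attract leukocytes along a gradient, and each acts through G protein-coupled receptors on the responding cell. CCL2 and CCL7, neighbouring genes of one chemokine cluster, draw monocytes through CCR2 and related receptors, CXCL8 draws neutrophils through CXCR1 and CXCR2, and CXCL10, an interferon-inducible chemokine, draws activated T cells through CXCR3. CSF2, also called GM-CSF, is a cytokine that supports granulocytes and macrophages through a receptor built from CSF2RA and CSF2RB. Injured kidney tubule epithelium is a known source of CCL2 and CXCL8, and the genes of this group are well-known targets of the transcription factors NF-kB, AP-1 or, for CXCL10, the interferon-activated factors.

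The chemokine and CSF2 probe sets described here are those whose platform annotation names CCL2, CCL7, CXCL8, CXCL10 or CSF2 as the only gene. The rule found 5 genes of the 15115 genes that a probe set names alone, with 8 probe sets of 42924 that are no control: 3 for CXCL8, 2 for CXCL10 and 1 for each of the other genes. The genes were chosen because of their levels in the untreated and HGF-treated cells, so their differences among those 4 groups are given as a description, with no test.

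The cells were MDCK II, an established line of dog kidney epithelium, profiled as bulk total RNA on 29 Affymetrix canine arrays. They grew either flat on permeable transwell supports (2D) or in collagen (3D). In each format cells were left untreated (control), received hepatocyte growth factor (HGF), which signals through the receptor tyrosine kinase MET, or received HGF together with PD-98059 or U0126, which block MEK, the kinase that activates ERK. The control and HGF groups held 4 arrays in each format, HGF with PD-98059 held 4 arrays in 2D and 3 in 3D, and HGF with U0126 held 3 arrays in each. Doses and exposure times were not given in the sources used here, there was no group with an inhibitor but no HGF, and a single line limits the groups as a model of kidney epithelium. Nothing in the labels says that arrays of a group came from separate cultures, so each p-value measures the spread between arrays, which may be partly technical. Levels are the deposited log2 values, differences are log2 differences with their standard error (SE), and a level below log2 5 is called dim. In bulk RNA, fewer cells that make a transcript and less of it per cell cannot be told apart.

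The arrays carried an epithelial signal in every group. Of 8 epithelial markers with a probe set, EPCAM, KRT8, KRT18, CDH16 and CLDN7 reached the filter (log2 5 in at least 3 arrays), while CDH1, PAX8 and PAX2 were dim, and the summed level was between log2 15.64 and 16.39. No fibroblast marker (0 of 8, summed level 5.88 to 6.17) and no endothelial marker (0 of 5, 5.74 to 6.09) reached the filter. Of 10 leukocyte markers only the macrophage marker CD68 did, in 2D HGF, where the summed level was 6.42 to 7.41 against 6.03 to 6.26 in the other 7 groups; PTPRC, which defines leukocytes, was dim. Among the 3D HGF arrays replicate 1 stood apart, with a lowest correlation between arrays of 0.964 in that group against 0.987 or more in the others. An index of RNA quality, the excess of 3′ over 5′ or middle signal of control transcripts, averaged 1.93 over the untreated 3D arrays (SD 0.24, n = 4), 1.68 over the 3D HGF arrays (SD 0.58, n = 4) and 0.84 over the 2D HGF arrays (SD 0.05, n = 4), and lay between 1.31 and 1.65 in the means of the other groups. Its part in the results was not tested beyond a fit with the index as a covariate, which changed no call on these genes.

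Of the 8 probe sets, 5 reached the filter, 1 for each gene, and they reached it through the groups where the gene was high, so a count over these 5 is a description of them. CCL2 was at or above log2 5 in 14 of 29 arrays, CCL7 and CXCL8 each in 10, CXCL10 in 7 and CSF2 in 22. The other probe sets were dim on every array: those of CXCL8, both with the suffix S1_s_at, lay between 2.77 and 3.29 and between 2.41 and 2.62, and that of CXCL10, also S1_s_at, lay between 2.69 and 3.34. For CXCL8 and CXCL10 the probe sets therefore disagreed, and the values below come from the probe set of each that ends in S2_at.

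**Figure D1:**
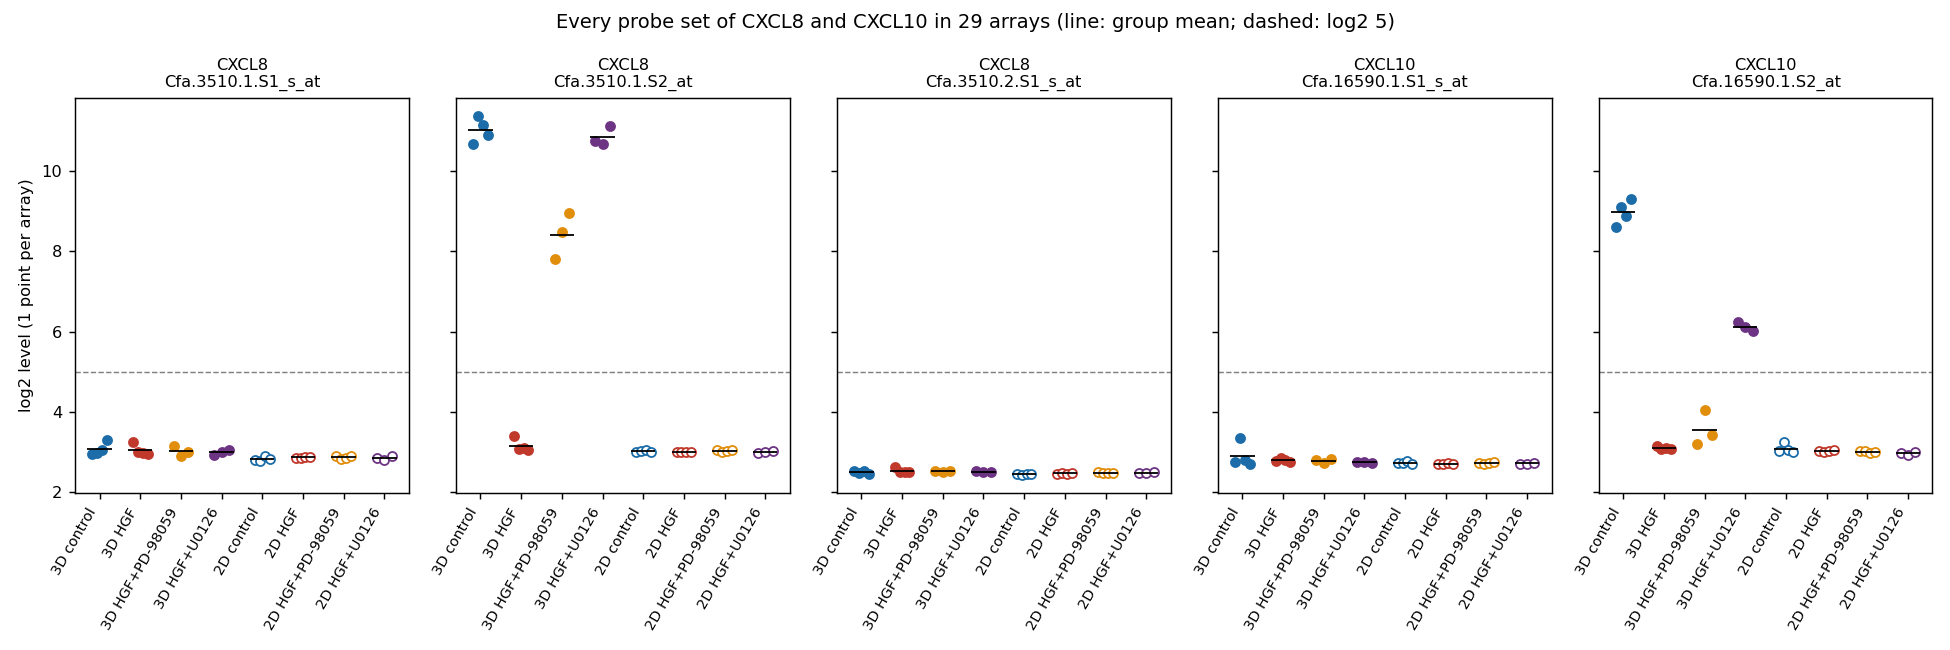
Log2 level of all 3 CXCL8 and both CXCL10 probe sets in the 8 groups, 1 point for each array, with lines at the group means and a dashed line at log2 5. The S2_at probe set of each gene reaches 11.38 and 9.32 in 3D control, while the others stay below the dashed line on all 29 arrays.

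CCL2 stood high in untreated 3D cells, was lower with HGF and was dim in every 2D group. The 3D control arrays read 13.72, 13.63, 13.58 and 13.85, and the 3D HGF arrays read 8.08, 8.09, 7.83 and 7.79. With HGF and PD-98059 the 3D arrays read 12.62, 12.77 and 12.85, and with HGF and U0126 they read 13.19, 13.20 and 13.66. In 2D the control arrays read 3.27, 3.99, 4.02 and 3.23, the HGF arrays 3.18, 3.19, 2.90 and 3.22, the PD-98059 arrays 4.63, 3.98, 4.98 and 4.83, and the U0126 arrays 4.70, 3.19 and 3.20. HGF left CCL2 well above its 2D level. With U0126 the 3D arrays overlapped the untreated ones, while with PD-98059 their mean was 1.93-fold below the untreated mean, without overlap. In the order of the group means, 3D control and 3D HGF with U0126 overlapped, the next steps down to PD-98059, to 3D HGF and to the 2D groups were clear of each other, and 2D PD-98059, U0126 and control overlapped their neighbours.

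CCL7, which shares receptors with CCL2, had a similar order but was dim once HGF was added in 3D. Its 3D control arrays read 9.65, 9.49, 9.60 and 9.55, and the 3D HGF arrays read 3.16, 3.84, 3.28 and 3.93. With HGF and PD-98059 they read 8.30, 8.18 and 8.70, and with HGF and U0126 they read 8.39, 8.60 and 8.71. Both inhibitor groups overlapped each other, lay below every control array and lay above every HGF array. All 2D arrays were between 3.03 and 3.13. CCL8 and CCL13, other chemokine genes with a probe set, were dim throughout, with highest levels of 3.89 and 2.60.

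CXCL8 had the widest step between untreated and HGF-treated 3D cells among the 5 genes. The 3D control arrays read 10.69, 11.38, 11.15 and 10.91, and the 3D HGF arrays read 3.40, 3.07, 3.09 and 3.05. With HGF and PD-98059 the 3D arrays read 7.82, 8.47 and 8.97, and with HGF and U0126 they read 10.75, 10.68 and 11.13. The U0126 arrays lay within the range of the control arrays or just below it, and the PD-98059 arrays lay between the HGF and the U0126 arrays without touching either. All 2D arrays were between 2.98 and 3.04.

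CXCL10 was high in untreated 3D cells, dim with HGF and dim or intermediate with an inhibitor. Its 3D control arrays read 8.61, 9.12, 8.89 and 9.32, and the 3D HGF arrays read 3.14, 3.08, 3.10 and 3.06. With HGF and PD-98059 they read 3.18, 4.05 and 3.41, all dim, and with HGF and U0126 they read 6.23, 6.10 and 6.01. The U0126 arrays stood clear of the control arrays above them and of the PD-98059 arrays below them. In 2D all arrays were between 2.91 and 3.24.

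CSF2 stayed above log2 8 under HGF in 3D and was the only one of the 5 to reach the filter in 2D. Its 3D control arrays read 10.21, 10.21, 10.46 and 10.07, the 3D HGF arrays 8.52, 9.18, 8.59 and 8.48, the PD-98059 arrays 9.14, 9.01 and 9.37, and the U0126 arrays 8.94, 9.48 and 9.68. In 2D the control arrays read 3.55, 3.53, 3.58 and 4.41, and the HGF arrays read 5.77, 6.602, 6.13 and 6.47. The 2D arrays with HGF and PD-98059 read 6.18, 4.06, 5.77 and 5.06, and those with U0126 read 4.81, 4.39 and 5.08. In 3D the control arrays lay above all others while the 3 HGF groups overlapped along the order U0126, PD-98059, HGF. In 2D the order was HGF, PD-98059, U0126 and control, and each overlapped the next.

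**Figure D2:**
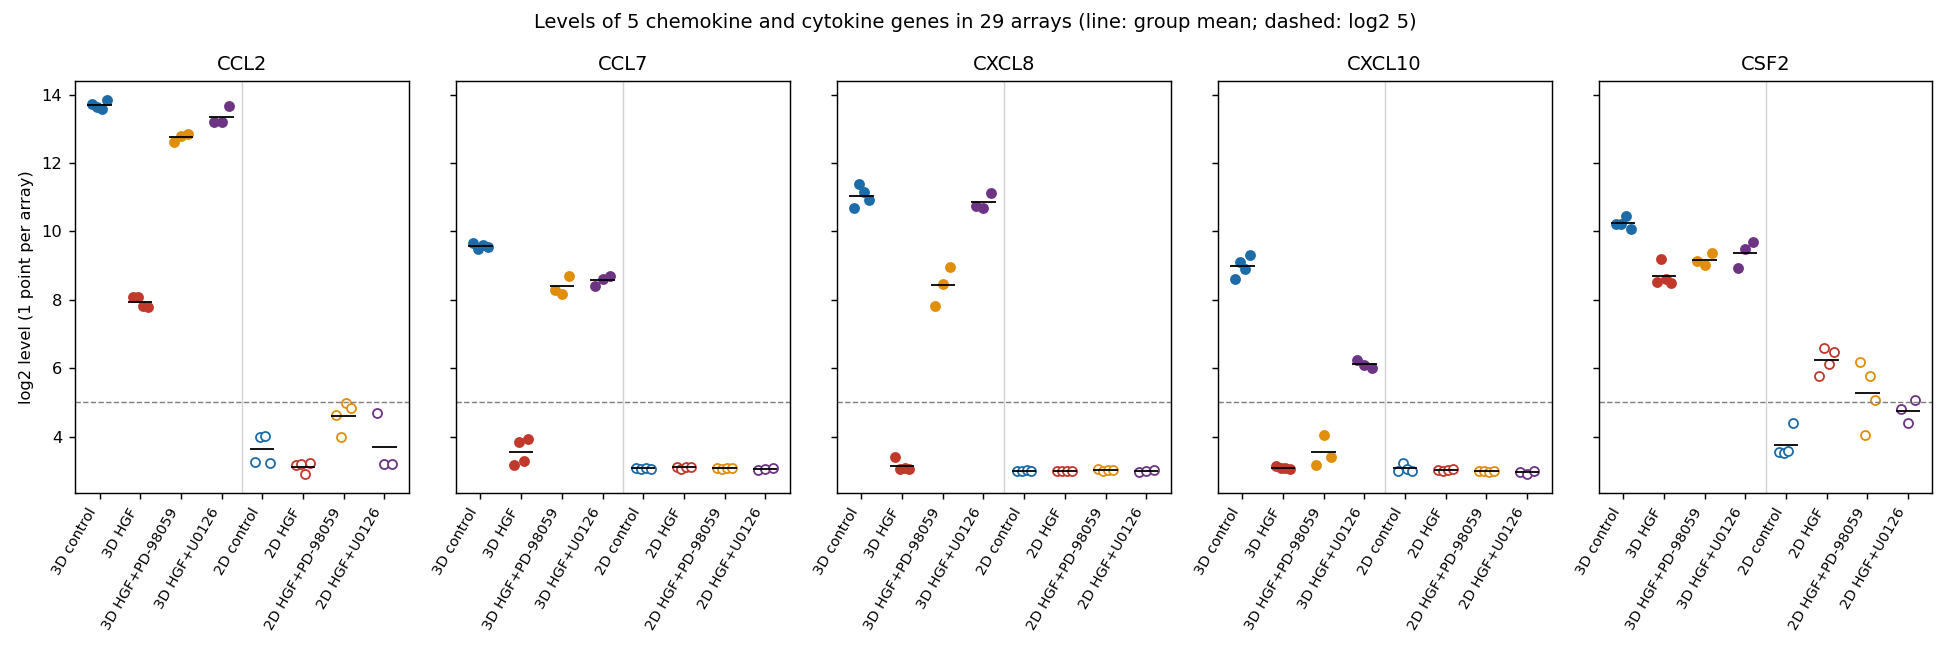
Log2 level of CCL2, CCL7, CXCL8, CXCL10 and CSF2 in the 8 groups, 1 point for each array. Lines mark group means, and the untreated 3D cells are highest for each gene, at means of 13.70, 9.58, 11.03, 8.98 and 10.24.

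Between the untreated formats the step ran one way for each gene. The 3D control minus 2D control difference was 10.07 ± 0.25 for CCL2, 6.50 ± 0.14 for CCL7, 8.02 ± 0.17 for CXCL8, 5.91 ± 0.14 for CXCL10 and 6.47 ± 0.31 for CSF2 (SE, n = 4 and 4). Since the 2D controls were dim, folds are lower bounds with dim levels counted as log2 5. They were at least 414.9-fold for CCL2, 23.8-fold for CCL7, 65.5-fold for CXCL8, 15.8-fold for CXCL10 and 37.7-fold for CSF2. Arrays of the formats did not overlap for 5 of 5 genes, while 25.0% of the 16571 tested probe sets were higher in 3D without overlap; nothing is read from the count, since the genes were chosen on it.

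In 3D the HGF arrays lay below the control arrays for 5 of 5 genes, again a description, and 28.3% of tested probe sets were lower without overlap. The HGF minus control difference was -5.75 ± 0.25 for CCL2 (53.8-fold lower) and -1.54 ± 0.31 for CSF2 (2.92-fold lower). The HGF level was dim for CCL7 (-6.02 ± 0.14, at least 23.8-fold), CXCL8 (-7.88 ± 0.17, at least 65.5-fold) and CXCL10 (-5.89 ± 0.14, at least 15.8-fold). CSF2 thus had the smallest step, and it was also the gene with the opposite sign in 2D. There its HGF minus control difference was 2.48 ± 0.31 (at least 2.37-fold), and the arrays did not overlap (25.6% of tested probe sets were higher without overlap), while the other 4 genes were dim in both groups. CD68, the leukocyte marker named above, was higher in the same 2D HGF arrays by 3.00 ± 0.25 with a mean of 5.77, and its part in the CSF2 value was not tested. Subtracting the 2D from the 3D effect of HGF gave -5.25 for CCL2, -6.05 for CCL7, -7.86 for CXCL8, -5.84 for CXCL10 and -4.02 for CSF2. With dim levels counted as log2 5 these were -5.75, -4.58, -6.03, -3.98 and -2.79.

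The next comparison was of HGF-treated cells with and without a MEK inhibitor in 3D. It used arrays that did not choose the genes on one side and the 3D HGF arrays, shared with the description above, on the other. The 3D HGF levels were among those that chose the genes, so a rise from them is partly set by the choice. With PD-98059, 4 of 5 genes passed as higher, 3 of them (CCL2, CCL7 and CXCL8) with a group above log2 5, where 42.0% of tested probe sets passed in either direction and 26.6% were higher (limma, Benjamini-Hochberg adjusted p under 0.05). CCL2 rose by 4.80 ± 0.27 (27.9-fold, limma adjusted p = 1.91e-13), CCL7 by 4.84 ± 0.15 (at least 10.5-fold, 1.35e-18) and CXCL8 by 5.27 ± 0.18 (at least 10.7-fold, 1.14e-17). Every PD-98059 array stood above every HGF array for 4 of 5 genes, CXCL10 included, where 23.9% of tested probe sets were higher without overlap. CXCL10 passed with 0.45 ± 0.15 (limma adjusted p = 0.0198) but was dim in both groups, so no fold is given and nothing is read from it. The count was 3 without PD-98059 replicate 2, without HGF replicates 1 and 4 together, and with dim levels counted as log2 5. CSF2 differed by 0.48 ± 0.33 (95% interval -0.20 to 1.16, limma adjusted p = 0.266), and the arrays overlapped.

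With U0126, 4 of 5 genes were also higher than with HGF alone, where 49.3% of tested probe sets passed and 25.4% were higher. The 3D HGF arrays that helped to choose the genes were again the other side, so counts, medians and p-values carry the same limit. CCL2 rose by 5.40 ± 0.27 (42.4-fold, limma adjusted p = 1.08e-14), CCL7 by 5.01 ± 0.15 (at least 11.8-fold, 2.67e-19) and CXCL8 by 7.70 ± 0.18 (at least 57.8-fold, 4.7e-21). CXCL10 rose by 3.02 ± 0.15 (at least 2.17-fold, limma adjusted p = 1.31e-14), from dim on all 4 HGF arrays to above log2 6 on all 3 U0126 arrays. Here too 4 of 5 genes were higher without overlap, against 23.0% of tested probe sets. CSF2 differed by 0.68 ± 0.33 (95% interval -0.01 to 1.36, limma adjusted p = 0.0958), with overlapping arrays, so in the main fit its level was not shown to move with either inhibitor in 3D. With dim levels counted as log2 5, the CSF2 difference with U0126 did pass (limma adjusted p = 0.019). The median over the 5 tested genes was 4.80 with PD-98059 and 5.01 with U0126, against 0.05 and 0.00 over all tested probe sets, and 3.39 and 3.57 with dim levels counted as log2 5. Without HGF replicate 1, the array that stood apart, the differences with PD-98059 were 4.85 for CCL2, 4.71 for CCL7 and 5.35 for CXCL8, and those with U0126 were 5.45, 4.88 and 7.78, with 3.03 for CXCL10. CSF2, at 0.42 and 0.62, again did not pass.

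**Figure D3:**
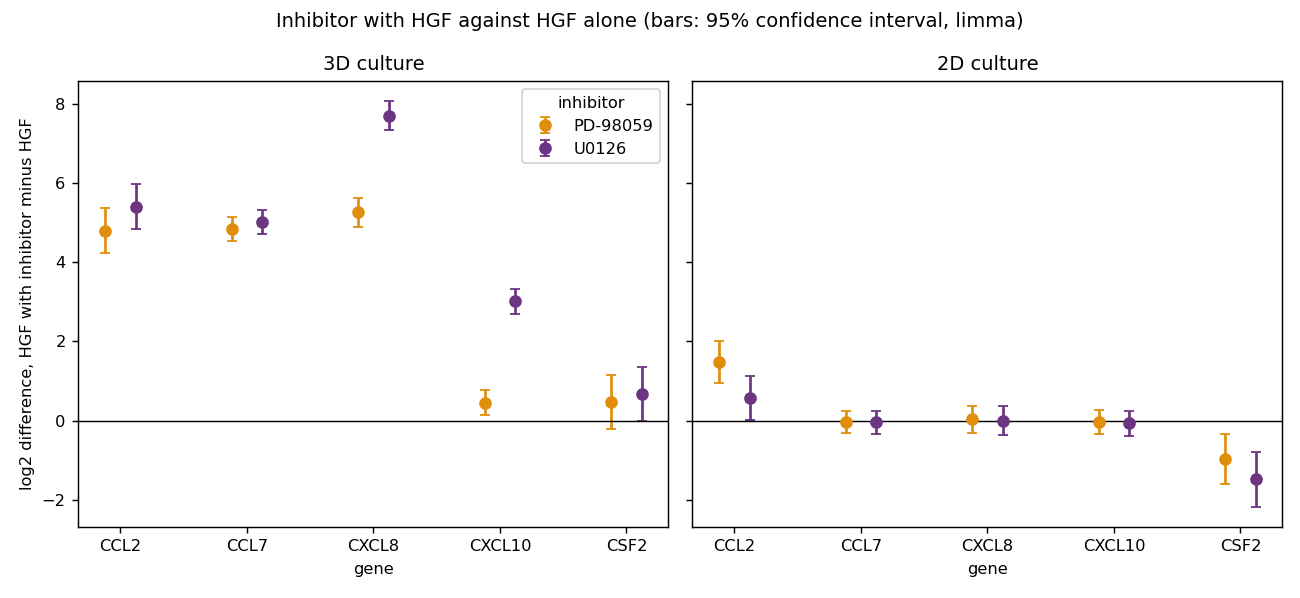
Log2 difference of HGF with inhibitor minus HGF alone, in 3D and in 2D, for each of the 5 genes, with 95% intervals. In 3D the values for CCL2, CCL7 and CXCL8 lie between 4.80 and 7.70, and those for CSF2 at 0.48 and 0.68 have intervals that reach below 0.

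The share of the HGF-associated fall that was regained differed from gene to gene. As a description on the log2 scale, CCL2 regained 83.5% with PD-98059 and 94.0% with U0126. For CSF2, whose fall was smallest, the shares were 31.1% and 43.8%, from differences that passed with neither inhibitor in the main fit. The HGF level of the other genes was dim, so their shares depend on where the floor is set and are given with dim levels counted as log2 5. CCL7 then regained 74.2% with PD-98059 and 78.0% with U0126 (80.4% and 83.2% from the deposited levels), and CXCL8 56.7% and 97.0% (66.9% and 97.7%). CXCL10 regained 0% with PD-98059, where it was dim, and 28.0% with U0126 (7.68% and 51.3% from the deposited levels). U0126 arrays overlapped the untreated 3D arrays for CCL2 and CXCL8 only, where their means were 1.27-fold and 1.13-fold below the control mean. CCL7 stayed 2.01-fold and CXCL10 7.29-fold below it with U0126. With PD-98059 no gene overlapped the control, and the means were 1.93-fold below it for CCL2, 2.27-fold for CCL7, 6.11-fold for CXCL8, at least 15.8-fold for CXCL10 (dim with PD-98059) and 2.09-fold for CSF2.

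Set directly against each other in 3D, the inhibitors differed for CXCL8 and CXCL10, each read from its S2_at probe set alone. Their other probe sets were dim on every array. Levels with U0126 were higher than with PD-98059 for 2 of 5 genes, where 11.8% of tested probe sets passed and 2.99% were higher. CXCL8 was higher by 2.43 ± 0.19 (5.39-fold, limma adjusted p = 5.64e-09) and CXCL10 by 2.57 ± 0.16 (at least 2.17-fold, 1.82e-10). The other genes did not pass, and their 95% intervals bound the difference: 0.0022 to 1.20 for CCL2 around 0.60 (limma adjusted p = 0.195), -0.15 to 0.49 for CCL7 around 0.17 (0.539) and -0.53 to 0.93 for CSF2 around 0.20 (0.797). All 3 U0126 arrays were above all 3 PD-98059 arrays for 3 of 5 genes, CCL2 among them, where 9.05% of tested probe sets were higher without overlap. CCL2 passed with dim levels set to log2 5 (limma adjusted p = 0.000559; the range over the alternatives was 0.000559 to 0.413). Since doses were not given in the sources used here, they may differ between the inhibitors.

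In 2D CSF2 passed as lower with either inhibitor in the main fit, but the PD-98059 call did not hold in every alternative. With PD-98059, 1 gene was higher and 1 lower, where 52.4% of tested probe sets passed, 27.6% higher and 24.9% lower. The CSF2 difference was -0.98 ± 0.31 (1.97-fold lower, limma adjusted p = 0.00904), although the arrays overlapped. The call rested on replicate 2 of the PD-98059 group at 4.06: without it the difference was -0.58 (limma adjusted p = 0.0693). CCL2 was higher by 1.48 ± 0.25 (limma adjusted p = 1.8e-05) with all arrays of both groups dim, and CCL7, CXCL8 and CXCL10 did not pass.

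With U0126 in 2D, 1 of 5 genes passed, where 50.1% of tested probe sets passed and 24.3% were lower. CSF2 fell by 1.49 ± 0.33 (at least 2.37-fold, limma adjusted p = 0.000512), and no U0126 array reached the lowest HGF array (27.2% of tested probe sets were lower without overlap). CCL2 was at 0.57 ± 0.27 (limma adjusted p = 0.084), dim in both groups, with 1 U0126 array at 4.70 and the others at 3.19 and 3.20; without the second or the third of these arrays the count of genes that passed was 2. Between the inhibitors in 2D, 0 of 5 genes passed in limma, where 1.62% of tested probe sets did. The CSF2 difference of U0126 minus PD-98059 was -0.51 ± 0.33 (95% interval -1.19 to 0.18, limma adjusted p = 0.666). At an unadjusted p under 0.05, 1 of 5 was past it, CCL2, dim in both groups, and 1 gene passed after adjustment without PD-98059 replicate 2 or without U0126 replicate 1.

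The effect of each inhibitor was then compared between the formats by an interaction term. For PD-98059 the term was positive and passed for 4 of 5 genes, where 34.2% of tested probe sets passed and 22.0% were higher. The difference of effects was 3.32 ± 0.37 for CCL2 (limma adjusted p = 1.03e-07), 4.87 ± 0.20 for CCL7 (2.45e-15) and 5.24 ± 0.24 for CXCL8 (2.02e-14). For CSF2 it was 1.46 ± 0.45 (limma adjusted p = 0.0137), and 1.27 (0.0599) without 3D HGF replicates 1 and 4, and CXCL10 did not pass at 0.49 ± 0.21 (0.0759). The CSF2 term joined an effect of 0.48 in 3D, which did not pass, with one of -0.98 in 2D. Most groups in these terms were dim, and with dim levels counted as log2 5 the values were 4.80 for CCL2, 3.39 for CCL7, 3.42 for CXCL8 and 1.22 for CSF2.

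For U0126, 5 of 5 genes passed, where 36.5% of tested probe sets did and 19.9% were higher. The differences of effects were 4.83 ± 0.39 for CCL2, 5.06 ± 0.21 for CCL7, 7.70 ± 0.25 for CXCL8, 3.09 ± 0.22 for CXCL10 and 2.16 ± 0.47 for CSF2 (limma adjusted p of 3.88e-10, 2.41e-15, 1.55e-17, 4.4e-11 and 0.000695). With dim levels counted as log2 5 they were 5.40 for CCL2, 3.57 for CCL7, 5.85 for CXCL8, 1.12 for CXCL10 and 1.89 for CSF2, still past the threshold. For CSF2 the term joined a 2D effect of -1.49, which passed, with a 3D effect of 0.68, which did not pass in the main fit. With dim levels counted as log2 5 the 3D effect did pass (limma adjusted p = 0.019). Every one of these terms, for either inhibitor, holds the 3D HGF and 2D HGF arrays, which were among those that chose the genes. CCL2, CCL7, CXCL8 and CXCL10 were dim on every 2D array. Their terms therefore largely repeat the 3D difference, and no difference between formats is read from them.

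The formats were also compared under each treatment. Under PD-98059 or U0126 the comparison shares no array with the untreated and HGF-treated groups. Some 3D arrays with an inhibitor were, however, among those where these probe sets reached log2 5. CCL2, CCL7, CXCL8 and CXCL10 did so on no 2D array, so they entered the test through 3D arrays only. The genes were also chosen with earlier results of these data known. The counts and p-values under either inhibitor are therefore a description of these 5 genes. With HGF and PD-98059, 5 of 5 genes passed as higher in 3D than in 2D, 4 of them with a group above log2 5, where 50.7% of tested probe sets passed and 26.3% were higher. The difference was 8.14 ± 0.27 for CCL2 (at least 215.2-fold, limma adjusted p = 1.24e-17), 5.32 ± 0.15 for CCL7 (at least 10.5-fold, 3.15e-19) and 5.40 ± 0.18 for CXCL8 (at least 10.7-fold, 1.14e-17). CSF2 differed by 3.91 ± 0.33 (14.99-fold, limma adjusted p = 3.51e-10), and CXCL10 by 0.56 ± 0.15 (0.00379) with both groups dim, from which nothing is read. The count was 4 without 3D PD-98059 replicate 2 and with dim levels counted as log2 5.

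With HGF and U0126, 5 of 5 genes were again higher in 3D, where 41.8% of tested probe sets passed and 17.5% were higher. These values too are a description, for the reasons given for PD-98059. The difference was 9.65 ± 0.29 for CCL2 (at least 326.7-fold, limma adjusted p = 1.99e-18), 5.51 ± 0.16 for CCL7 (at least 11.8-fold, 6.93e-19) and 7.86 ± 0.19 for CXCL8 (at least 57.8-fold, 2.95e-20). It was 3.16 ± 0.16 for CXCL10 (at least 2.17-fold, limma adjusted p = 1.08e-13) and 4.61 ± 0.35 for CSF2 (at least 20.7-fold, 1.31e-10). No 3D array overlapped a 2D array for any of the 5 genes under either inhibitor, where 28.4% of tested probe sets were higher without overlap under PD-98059 and 25.1% under U0126. Under HGF alone both groups are among those that chose the genes, so the values are a description. The 3D minus 2D difference was 4.82 ± 0.25 for CCL2 (at least 7.71-fold) and 2.45 ± 0.31 for CSF2 (5.46-fold), while CCL7, CXCL8 and CXCL10 were dim in both formats.

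The rest of the pathway was read from lists of other chemokines, cytokines, receptors and regulators, by genes with a single-symbol probe set, the one with the highest mean where a gene had several. Over all tested probe sets 26.6% were higher and 15.4% lower with PD-98059 in 3D, and 25.4% higher and 23.8% lower with U0126, and the counts below stand against these shares. Of 32 other chemokines 20 had a probe set and 3 reached the filter, CCL17, CCL20 and CXCL16. In 3D, 2 of these 3 were higher with PD-98059 than with HGF alone and 2 with U0126 (all probe sets: 26.6% and 25.4%). CCL17, a ligand of CCR4, rose by 1.78 ± 0.26 with PD-98059 (limma adjusted p = 3.39e-06) and was at 0.37 ± 0.26 with U0126 (0.248). CXCL16, a membrane-bound chemokine, rose by 1.06 ± 0.11 and 1.24 ± 0.11, and CCL20, the ligand of CCR6, rose by 0.54 ± 0.18 with U0126 (limma adjusted p = 0.0123) and was at 0.01 ± 0.18 with PD-98059 (0.964); a second CCL20 probe set, dim with HGF, gave 3.26 and 0.36. In 2D CCL17 was lower with both inhibitors, by -2.92 ± 0.24 and -3.24 ± 0.26, and its effects differed between formats by 4.70 ± 0.35 and 3.61 ± 0.37.

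Of 24 other cytokines and colony stimulating factors, all with a probe set, 3 reached the filter, and 2 of the 3 were higher in 3D with each inhibitor (all probe sets: 26.6% and 25.4%). KITLG, the ligand of the receptor KIT, rose by 2.23 ± 0.26 with PD-98059 and 1.57 ± 0.26 with U0126, and in 2D by 2.65 ± 0.24 and 2.22 ± 0.26. TNFSF10, the death ligand TRAIL, rose in 3D by 0.94 ± 0.20 and 1.38 ± 0.20, and IL1RN, an antagonist of interleukin-1, did not pass. Of 21 receptors 13 had a probe set and only ACKR3, an atypical receptor that takes up CXCL12, reached the filter. CCR2, CXCR3, CSF2RA and CSF2RB, which receive the signals of CCL2, CXCL10 and CSF2, were dim. ACKR3 was at 4.24 with HGF in 3D, 10.47 with PD-98059 and 9.41 with U0126, differences of 6.23 ± 0.20 and 5.17 ± 0.20, and U0126 was below PD-98059 by -1.06, a direction opposite to that of CXCL8 and CXCL10.

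Among 10 tested genes of the NF-kB pathway (28 of 30 with a probe set), 3 were higher and 2 lower with PD-98059 in 3D, and 3 higher and 1 lower with U0126, shares near those of all probe sets (26.6% higher and 15.4% lower, and 25.4% and 23.8%). BIRC3, an apoptosis inhibitor and NF-kB target, rose by 1.79 ± 0.16 and 2.35 ± 0.16, but its other tested probe sets, both dim with HGF, gave -0.03 and -0.17 with PD-98059 and 0.12 and 1.18 with U0126. NFKBIA, which holds NF-kB in the cytoplasm and is itself induced by it, rose by 1.33 ± 0.10 and 2.02 ± 0.10. NFKBIB, a related inhibitor, rose by 0.69 and 0.33, BIRC2 was lower by -0.52 and -0.59 (its second tested probe set, at -0.44 with each, did not pass), and TRAF3, an adaptor, was lower with PD-98059 by -0.75. In 2D BIRC3 was lower with both, by -1.55 ± 0.15 and -0.67 ± 0.16. For the NF-kB subunit gene NFKB1 the probe set with the highest mean did not pass in 3D (-0.08 and 0.19), while the other 2 passed with each inhibitor, at 0.63 and 0.52 with PD-98059 and 0.53 and 0.79 with U0126.

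Of AP-1 and C/EBP genes 2 of 7 with a probe set reached the filter, and both fell with each inhibitor in 3D (all probe sets: 15.4% and 23.8% lower). FOS, an immediate early gene downstream of ERK, was at -0.89 ± 0.10 with PD-98059 and -1.94 ± 0.10 with U0126, and in 2D at -1.85 ± 0.09 and -2.42 ± 0.10. JUN was at -2.51 ± 0.25 and -1.51 ± 0.25 in 3D. These genes thus moved against CCL2, CCL7 and CXCL8 in the same arrays. Of 9 tested interferon-response genes 5 were higher with each inhibitor in 3D and 0 lower (all probe sets: 26.6% and 25.4% higher). GBP1, an interferon-induced GTPase, rose by 2.60 ± 0.16 and 3.38 ± 0.16 from a dim 4.09 with HGF. A second tested GBP1 probe set, dim in these groups, gave 0.26 with PD-98059, which did not pass, and 1.76 with U0126. ISG15, a ubiquitin-like modifier, rose by 0.97 and 0.99, and IFIH1, a sensor of double-stranded RNA, by 0.94 and 1.15. In 2D, 2 were higher and 5 lower with each inhibitor, where 27.6% of all probe sets were higher and 24.9% lower with PD-98059, and 25.8% and 24.3% with U0126. Of 9 tested regulators of AU-rich mRNA decay, a route that shortens the life of many cytokine transcripts, 0 were higher with either inhibitor in 3D, and 1 was lower with PD-98059 and 2 with U0126 (all probe sets: 15.4% and 23.8% lower). MAPKAPK2, a kinase that acts on proteins of this route, was at -0.82 and -0.89, dim in these groups, and HNRNPD, an RNA-binding protein of it, was at -0.30 with U0126 (a second probe set, at -0.08, did not pass).

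**Figure D4:**
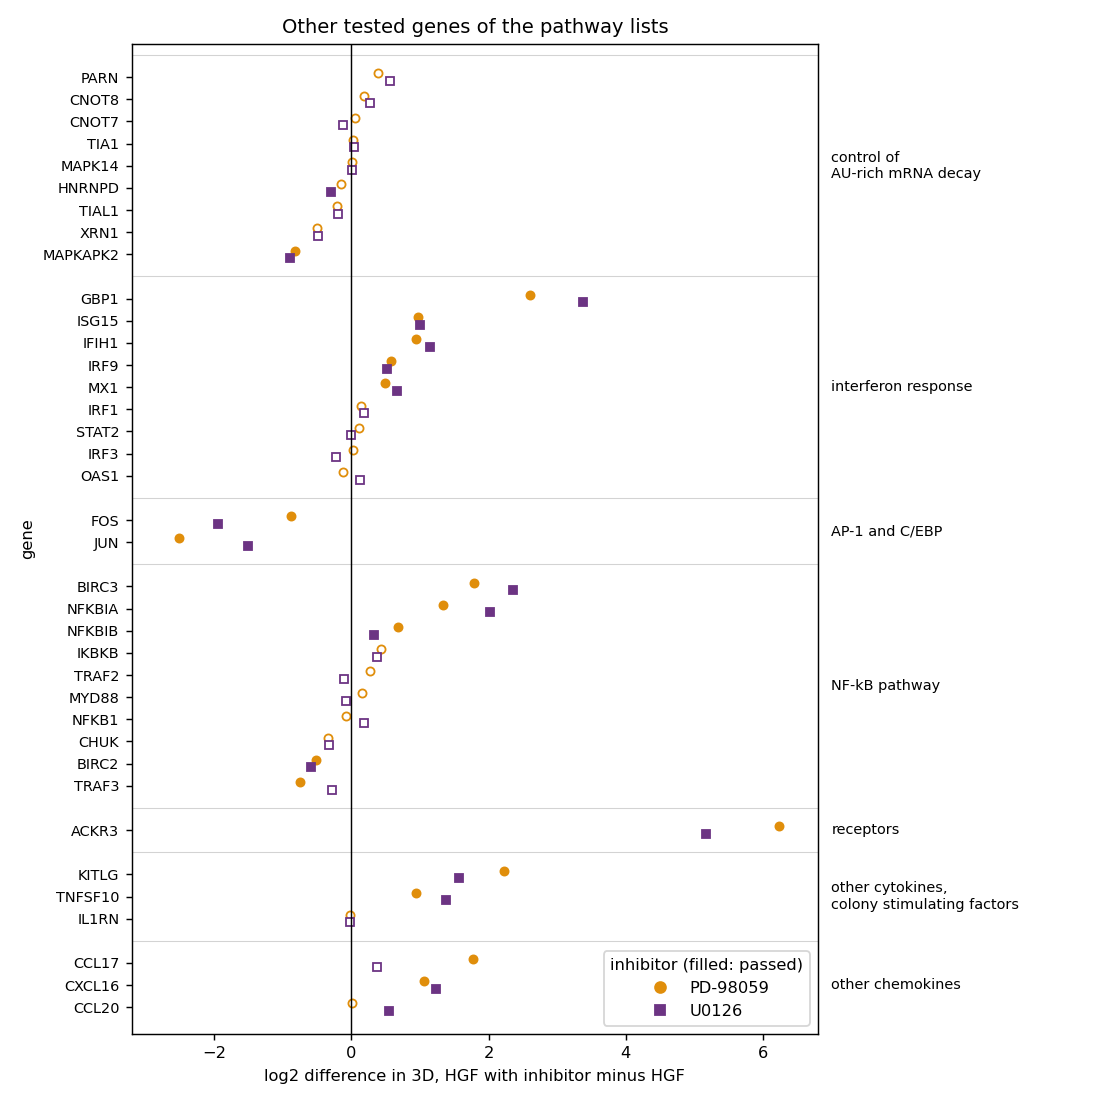
Log2 difference in 3D of HGF with PD-98059 (circles) or U0126 (squares) minus HGF alone, for the tested genes of 7 lists, 1 probe set a gene; filled symbols passed the limma test. ACKR3 lies farthest to the right at 6.23 and 5.17, and FOS and JUN lie to the left of 0.

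Over the 8 group means the genes varied in different degrees of likeness, measured as the root mean square (RMS) difference of profiles centred on their own mean. CCL7 and CXCL8 were nearest each other (0.89 log2 units) and CCL2 and CXCL10 farthest apart (3.18). Outside the 5 genes, the profile nearest to their mean was that of TAGLN, an actin-binding protein of contractile cells, at 0.33, followed by ACTA2, smooth muscle actin, at 0.66 and IDO1, an interferon-inducible enzyme of tryptophan breakdown, at 0.91. SAA1 (0.98), MMP9 (1.05), BIRC3 (1.11), GBP1 (1.20) and ACTA1 (1.24) came next. TAGLN read 8.81 in 3D control, 4.37 in 3D HGF, 7.42 with PD-98059, 8.31 with U0126 and 2.53 to 2.63 in 2D, lower with HGF and higher with either inhibitor in 3D.

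By gene, ACTA2 was nearest to CCL2 (1.13) and CXCL8 (0.92), TAGLN to CCL7 (0.50), IDO1 to CXCL10 (0.78) and MMP9, a gelatinase, to CSF2 (0.70). ANKRD1 followed for CXCL10 (0.83): it read 6.15 in 3D control, 2.53 in 3D HGF, 2.51 with PD-98059 and 4.85 with U0126. Like CXCL10 it was dim with PD-98059 in 3D. MMP9 read 8.88 in 3D control, 6.69 in 3D HGF, 8.88 with PD-98059 and 7.79 with U0126, and 2.66 to 3.83 in 2D. These likenesses are descriptions over 8 group means that share arrays, and carry no test.

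**Figure D5:**
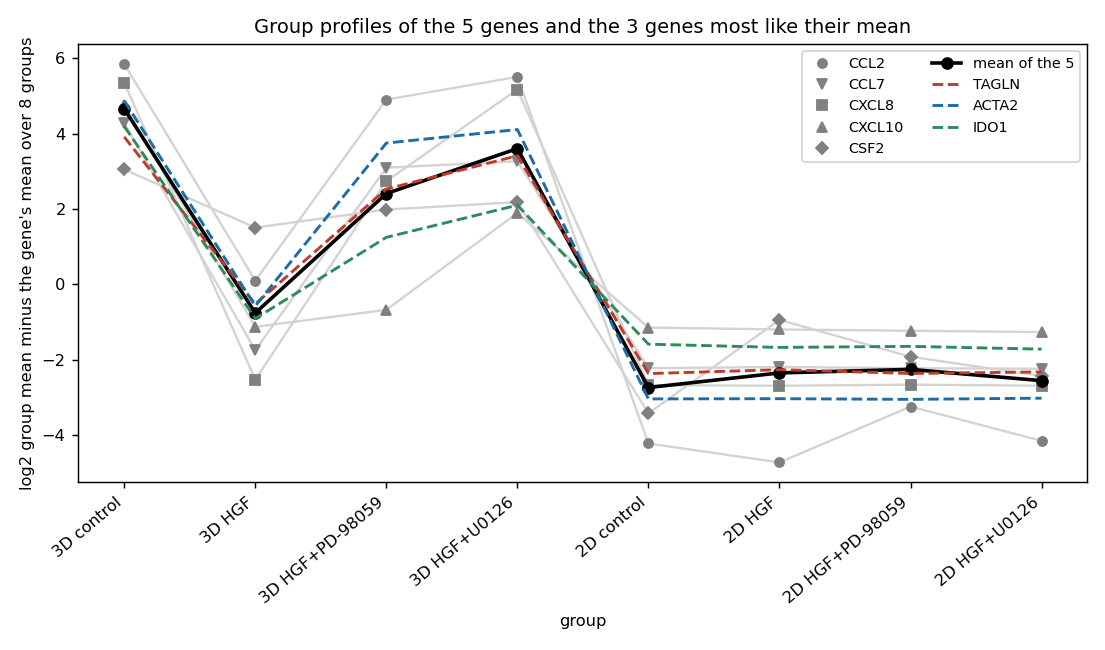
Group means of the 5 genes, their mean (black) and the 3 genes with the profiles most like that mean (dashed), each centred on its own mean over the 8 groups, in log2 units. The lines fall from 3D control to 3D HGF, are higher again in most cases with an inhibitor in 3D and are low in the 2D groups, with TAGLN 0.33 log2 units (RMS) from the mean of the 5 genes.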

How the data were processed

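The analysis used the deposited log2 table of 29 arrays, one column per array; the submitters' processing notes list MAS5, Affymetrix Expression Console 1.1, GCRMA and Partek 6.6, and which step made these log2 values is not given in the sources used here. Gene names came from the platform annotation (29254 probe sets with 1 symbol, 439 with several, 13231 with none listed; 111 controls were left out). Probe sets at log2 5 or more in 3 arrays were tested (16571). Group means were fitted with limma 3.58.1 in R 4.3.3 over all 8 groups, with a trended eBayes prior and Benjamini-Hochberg adjustment within each of 15 comparisons at 0.05; the script was tested on simulated data. The 5 comparisons among the untreated and HGF-treated groups are described without a test, 3D HGF against 2D HGF among them although a test was planned. Dim levels were counted as log2 5 for lower-bound folds. From each list, up to 3 genes per direction with the largest difference that passed were named, besides genes named for their role after their values were seen. The genes and lists were chosen with earlier results of these data known. The number of arrays limits the precision. Same-numbered arrays deviated together most clearly for U0126 in 3D against 2D (r of 0.25 to 0.60, 3 pairs). Every pair was also above 0 for PD-98059 against HGF in 2D (0.04 to 0.32) and for U0126 against PD-98059 in 3D (0.01 to 0.40). A replicate block changed no call on the 5 genes. Alternatives were other filters, no trend, compared groups alone, quantile normalization, centring, array weights, a replicate block, a floor at log2 5, an RNA-quality covariate and leaving out arrays. No probe sequences or genome were used here.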

Additional observations from a re-analysis of the deposited data

Results flagged for a closer look

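In 40 groups of 4 arrays, each read for 1 probe set, 7 had an array far from the others. Chance flags about 1 in 20 for independent groups with a normal spread. These groups share arrays and most flagged values were dim, so no excess is read from the count. For CSF2, 3D HGF replicate 2 read 9.18 against 8.48 to 8.59, and 2D control replicate 4 read 4.41 against 3.53 to 3.58. For CCL2, 2D HGF replicate 3 read 2.90 against 3.18 to 3.22, all dim. All 3 CXCL8 probe sets were highest in 3D HGF replicate 1, at 3.25 against 2.93 to 2.98, 3.40 against 3.05 to 3.09 and 2.62 against 2.49 to 2.50, all dim; that array also had the highest RNA-quality index of its group (2.46). The dim CXCL10 probe set (S1_s_at) read 3.34 in 3D control replicate 2 against 2.70 to 2.78.

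The interaction term of inhibitor and format passed in 9 cases. Each term holds the 3D HGF and 2D HGF arrays, which were among those that chose the genes. CCL2, CCL7, CXCL8 and CXCL10 were dim on every 2D array. Their 2D effects therefore rest on dim levels, and no difference between formats is read from their terms. For PD-98059 the difference of effects was 3.32 for CCL2, 4.87 for CCL7, 5.24 for CXCL8 and 1.46 for CSF2. For U0126 it was 4.83 for CCL2, 5.06 for CCL7, 7.70 for CXCL8, 3.09 for CXCL10 and 2.16 for CSF2. Dim levels enter these values; with dim levels counted as log2 5 the CXCL10 value was 1.12.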

How the results depend on the processing

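With dim levels set to log2 5, the median difference over the 5 tested genes was 5.24 for 3D against 2D control (6.50 as reported), -4.58 for HGF in 3D (-5.89) and -4.58 for the difference of HGF effects (-5.84); the floor itself shortens these values. The count of genes that passed with PD-98059 in 2D was 1 in place of 2 with that floor and with the compared groups fitted alone (CSF2 adjusted p = 0.0601, limma). Leaving out single arrays, that count ranged from 1 to 2, that of U0126 in 2D from 1 to 2, that of PD-98059 in 3D from 3 to 4, that of 3D against 2D under PD-98059 from 4 to 5, that of the PD-98059 interaction from 4 to 5, and that of U0126 against PD-98059 in 2D from 0 to 1. With array weights the CSF2 difference between the inhibitors in 3D turned to -0.0216 (0.20 as reported), past the threshold in neither fit. CSF2 with U0126 in 3D passed with the floor (limma adjusted p = 0.019). The replicate block changed no call on the 5 genes, with 5 of 5 passing for U0126 in 3D against 2D, and 6829 in place of 6920 probe sets called there. Quantile normalization shifted the median of all probe sets by -0.10 at most (PD-98059 in 3D). With the floor the U0126 interaction was 1.12 for CXCL10 (3.09 as reported). Levels below log2 5 limit what can be said of CCL2, CCL7, CXCL8 and CXCL10 in 2D. The same holds for CSF2 in 2D control and with U0126 in 2D. It also holds for CCL7, CXCL8 and CXCL10 with HGF alone in 3D, and for CXCL10 with HGF and PD-98059 in 3D.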
